A study of Mus musculus with 2 samples.

Results

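The 38 genes described here encode the secreted Wnt ligands of the mouse, their Frizzled receptors and the secreted Sfrp and Dkk inhibitors. They were chosen by name, as all 19 Wnt genes, 10 Frizzled genes (Fzd1 to Fzd10), 5 Sfrp genes (Sfrp1, Sfrp2, Sfrp4, Sfrp5 and Frzb) and 4 Dkk genes, out of 55450 annotated genes. Their CpG methylation was read in 2 libraries of mouse C3H myotubes, the fused muscle cells that C3H myoblasts form in differentiation medium. One culture had received a control siRNA (siCon) and the other siH19, an siRNA against the long non-coding RNA H19, and genomic DNA was taken 48 h later in each. Nothing else distinguished the cultures in the labels, and the myoblasts are a single established line. There was 1 library per group, so the spread between cultures is unknown and every test below compares 2 libraries, not 2 conditions. DNA methylation does not show RNA levels, so neither the knockdown of H19 nor the myotube state could be checked directly.

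Wnt proteins are secreted, lipid-modified ligands. They bind Frizzled receptors together with Lrp co-receptors, which stabilises β-catenin so that it can switch on target genes, or they act through Frizzled proteins on cell polarity and calcium without β-catenin. Sfrp proteins carry a Frizzled-like domain and bind Wnt ligands outside the cell, while Dkk proteins occupy the Lrp co-receptors. In skeletal muscle these signals take part in the specification of muscle precursors in the embryo and in regeneration from satellite cells. Methylation of CpG-rich promoters is generally linked to silencing, and the promoters of Sfrp and Dkk genes are known for it in tumours.

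The libraries came from reduced representation bisulfite sequencing, in which DNA is cut with MspI (CCGG) and TaqαI (TCGA), short fragments are kept, and bisulfite turns unmethylated cytosine into a base read as T. The siCon library held 104999613 reads summed over 5453019 cytosines, and the siH19 library 106372792 reads over 5266846 cytosines, with median depths of 12 and 13. Compared were the CpG cytosines outside the cut sites that both libraries covered by 5 reads or more, which left 1850635 in the genome. Of these, 5383 lay in the 38 genes, 2726 in promoters (within 1 kb of the start) and 2657 in gene bodies (the rest of the gene), with median depths of 29 in siCon and 30 in siH19. Promoter cytosines were available for 36 of the 38 genes, of which 35 had the 5 needed for a test, and body cytosines for 35, of which 33 had 5. Wnt16, a ligand active in bone, had no compared cytosine, and Wnt8b, a forebrain ligand, had none in its promoter. Dkk4 had 2 in its promoter and 1 in its body, Dkk2 had 4 in its body, and Sfrp4 and Sfrp5 had none in theirs.

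The stretches of DNA on which the results turned are shown from the reference genome (RefSeq, GRCm38.p6), 5′ to 3′ on the strand of the gene, with each compared CpG in capitals. A lower-case cg lay inside a cut site or was not read often enough. The Dkk1 fragment lies in the coding part of exon 2 at chr19:30548796-30548873 on the minus strand. The Sfrp1 stretch ends just before the start, at chr8:23411381-23411501 on the plus strand, and covers 2 neighbouring fragments. The Sfrp2 fragment is upstream of the start at chr3:83765932-83766001 on the plus strand, and the Wnt9b fragment is upstream of its start at chr11:103749901-103750110 on the minus strand. These 4 are shown because the differences described below were read in them. The last stretch, upstream of Wnt9a at chr11:59306778-59306927 on the plus strand, is shown as an almost unmethylated counterpart.
Dkk1: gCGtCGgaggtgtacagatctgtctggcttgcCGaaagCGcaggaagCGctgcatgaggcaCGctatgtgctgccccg
Sfrp1: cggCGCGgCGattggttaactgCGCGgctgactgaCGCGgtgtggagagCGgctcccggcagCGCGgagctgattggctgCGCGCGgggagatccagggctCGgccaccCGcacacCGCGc
Sfrp2: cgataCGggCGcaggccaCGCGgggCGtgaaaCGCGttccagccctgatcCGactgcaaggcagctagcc
Wnt9b: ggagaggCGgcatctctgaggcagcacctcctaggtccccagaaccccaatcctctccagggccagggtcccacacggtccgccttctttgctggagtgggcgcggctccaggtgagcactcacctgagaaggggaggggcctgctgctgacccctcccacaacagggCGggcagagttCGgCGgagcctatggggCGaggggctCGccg
Wnt9a: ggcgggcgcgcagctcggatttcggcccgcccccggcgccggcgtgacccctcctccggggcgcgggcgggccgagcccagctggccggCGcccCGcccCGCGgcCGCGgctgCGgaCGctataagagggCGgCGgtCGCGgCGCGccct

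The first question was how methylated these genes were in myotubes. A level is the weighted mean share of methylated reads over a gene's compared cytosines. Each cytosine had the same weight in both libraries, the product of its depths in siCon and siH19 divided by their sum. Brackets give Wilson 95% intervals, which cover counting error only. Most promoters of the group were little methylated: 24 of 35 were under 20% in both libraries, 10 lay between 20 and 80%, and none was over 80%. Among all 19476 promoters tested these classes held 68%, 23.4% and 5.76%. The median promoter of the group stood at 9.78% in siCon and 10.3% in siH19, against 3.78% and 3.90% for all promoters. Between 9.77% and 57.2% of the CpGs in a window were compared, with a median of 34.8%, so a level describes the fragments read and not the whole promoter.

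**Figure D1:**
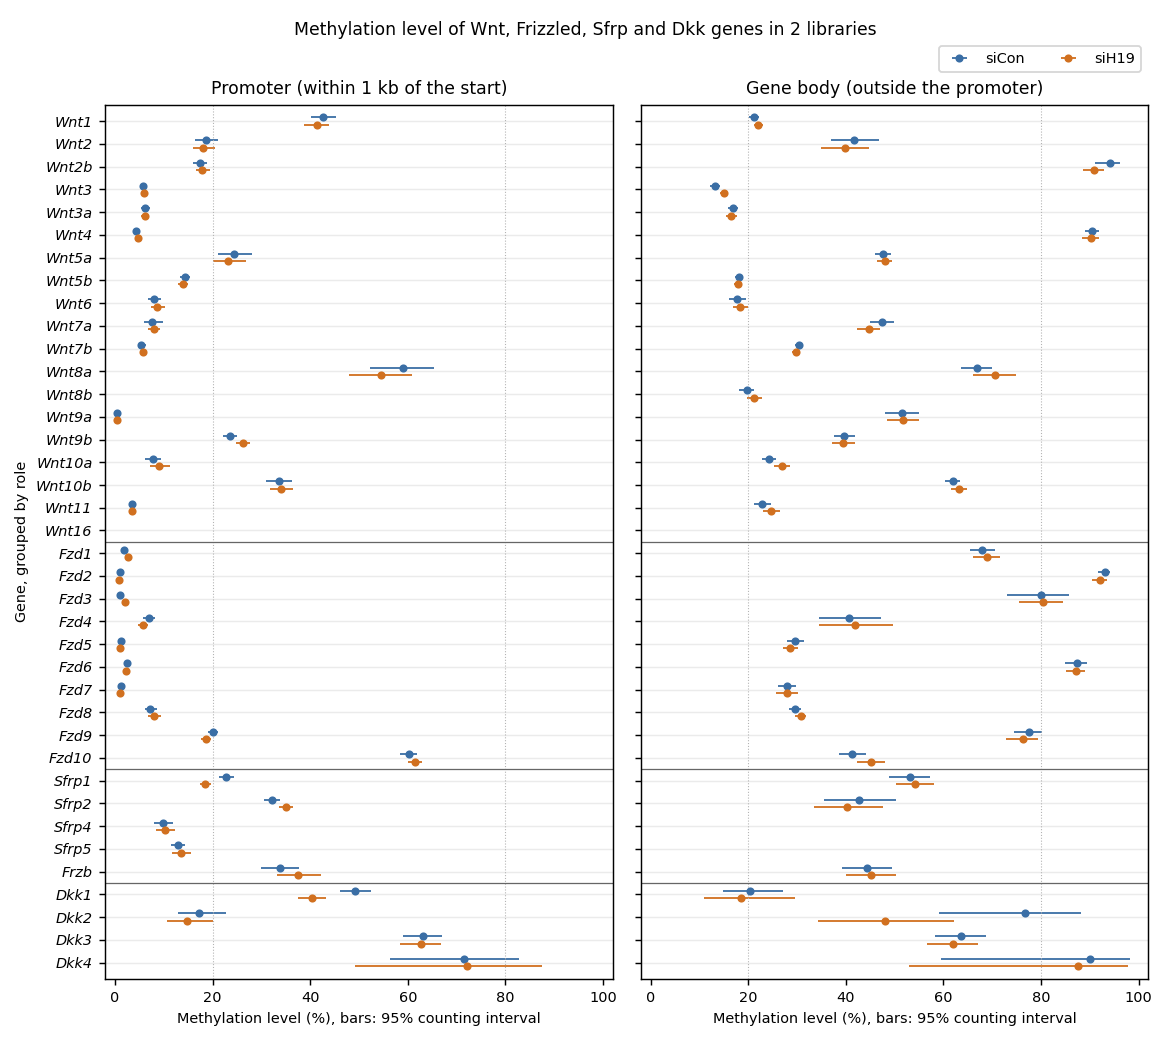
Methylation level (%) of each gene's promoter (left) and body (right) in siCon and siH19, 1 point per library with its 95% counting interval and genes grouped by role. Frizzled promoters other than Fzd9 and Fzd10 sit under 8%, while Fzd10, Dkk1, Dkk3, Wnt1 and Wnt8a, and Dkk4 on 2 cytosines, reach 40% or more in both libraries. Genes without points had no compared cytosine.

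By the median promoter, the Frizzled genes were the least methylated of the 4 roles. The median of the 10 promoters was 2.23% in siCon and 2.42% in siH19, and 9 of them were under 20% in both libraries. The order with the ligands was not the same over pooled cytosines of equal weight. Frizzled promoters then stood at 12.8% in siCon and 13.1% in siH19, and ligand promoters at 12.0% and 12.4%. Fzd7, a receptor of Wnt7a on satellite cells, stood at 1.23% (0.990 to 1.53) in siCon and 1.06% (0.839 to 1.33) in siH19 over 194 cytosines. Fzd2 stood at 1.00% and 0.806%, and Fzd5 at 1.16% and 0.950%. Fzd3 and Fzd6, receptors of planar cell polarity, had 1.14% and 2.56% in siCon and 2.06% and 2.20% in siH19. Fzd1 had 1.91% and 2.63%. Fzd4, the Norrin receptor of retinal vessels, had 6.91% and 5.70%, and Fzd8 7.20% and 7.93%. Fzd10 was the exception, with 60.1% (58.5 to 61.8) in siCon and 61.4% (60.0 to 62.9) in siH19 over 145 cytosines. Its fragment centred 72 bp past the start was at 91.4% and 91.7%, so the region of the start itself was methylated in both libraries. Fzd9 lay at the limit, at 19.99% and 18.6%.

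Among the 17 ligands with a testable promoter, 12 were under 20% and 5 lay between 20 and 80%. The lowest was Wnt9a, a ligand of joint formation, at 0.324% (0.184 to 0.571) in siCon and 0.514% (0.339 to 0.780) in siH19. In the Wnt9a stretch printed above, 19 of the 28 cytosines had equal levels and none exceeded 4%. Wnt11 followed with 3.55% and 3.58%, and Wnt4, which acts in kidney and ovary, with 4.25% and 4.79%. Wnt7b had 5.42% and 5.71%, and Wnt7a, the ligand of muscle regeneration, 7.69% and 7.91%. The highest of the low class were Wnt2 with 18.7% and 18.1% and Wnt2b with 17.4% and 17.9%, ligands that together specify the lung, and Wnt5b with 14.3% and 13.9%. The 5 methylated ligands were Wnt8a with 59.0% and 54.5%, Wnt1 with 42.7% and 41.3%, Wnt10b with 33.6% and 34.0%, Wnt5a with 24.4% and 23.3%, and Wnt9b with 23.6% and 26.2%. Wnt1 acts in the dorsal neural tube and midbrain, Wnt5a signals mostly without β-catenin, Wnt10b holds back fat cell formation, and Wnt9b acts in kidney tubules. Several Wnt genes are chromosomal neighbours. Wnt10b and Wnt1 start 11.7 kb apart, on opposite strands, and both promoters were in the middle class. Wnt3a and Wnt9a start 16.2 kb apart and both were low, as were Wnt6 and Wnt10a, which start 19.6 kb apart. Wnt9b and Wnt3 start 24.3 kb apart and differed, since Wnt3, needed for gastrulation, had only 5.76% in siCon and 5.91% in siH19.

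The inhibitors stood higher, with siCon medians of 22.7% over 5 Sfrp promoters and 49.3% over 3 Dkk promoters. Sfrp2 had 32.2% (30.6 to 33.8) in siCon and 35.0% (33.5 to 36.4) in siH19, Frzb 33.8% and 37.5%, and Sfrp1 22.7% and 18.5%. Sfrp5 and Sfrp4 stayed low, at 12.8% and 9.78% in siCon. Of the Dkk genes, Dkk3, a divergent family member, had 63.1% (59.1 to 66.9) and 62.7% (58.4 to 66.8), and Dkk1, an Lrp blocker needed for head formation, 49.3% and 40.3%. Dkk2 had 17.3% and 14.7% over 16 cytosines. Across the 35 promoters, the level in siCon fell with CpG density, with a Spearman correlation of -0.54 to the observed to expected CpG ratio. The middle class had ratios from 0.283 to 0.750 and the low class from 0.370 to 0.923, so the classes overlapped. These points share both libraries and are given as a description.

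Gene bodies were more methylated than promoters. The median body stood at 41.8% in siCon and 41.8% in siH19, against 55.0% and 55.5% for all 18018 bodies tested. CpG-rich sequence (200-bp windows, limits of 50% GC and a CpG ratio of 0.6) held 67.7% of the group's body cytosines. It held 32.1% of all body cytosines. CpG-rich body cytosines stood at 27.0% in siCon and 27.5% in siH19 in the group, and at 27.1% and 27.4% in all bodies. The other body cytosines stood at 50.4% and 50.3% in the group, and at 55.0% and 55.2% in all bodies. How far CpG content accounts for the lower median was not tested. The body was above the promoter in both libraries in 28 of the 32 genes with both, or 87.5%, against 84.9% of all genes with both. Wnt2b (94.1% and 90.9%), Fzd2 (93.0% and 92.1%) and Wnt4 (90.5% and 90.3%) had the most methylated of the tested bodies, and Wnt3 the least, with 13.2% and 15.0%. In all, 4 bodies were under 20% in both libraries (14.9% of all bodies), 22 lay between 20 and 80% (59.9%) and 5 were over 80% (20.5%). Body cytosines in exons averaged 40.4% in siCon and those in introns 23.4%.

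**Figure D2:**
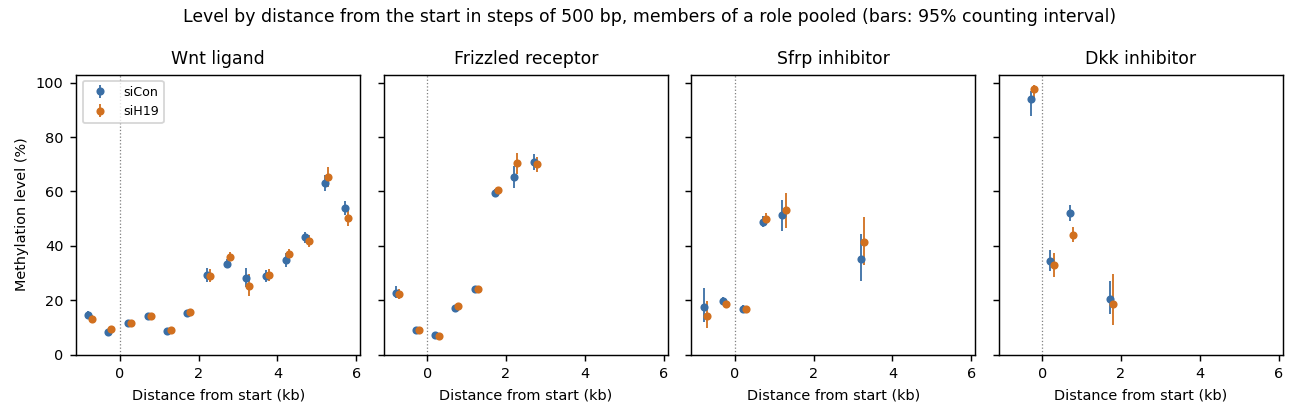
Methylation level (%) against distance from the start (kb) in steps of 500 bp, for the pooled genes of each role, with 95% counting intervals and only steps that had enough cytosines. Levels in ligands and Frizzled genes are lowest around the start and climb to 59.6% or more in siCon further in, and the 2 libraries follow each other.

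The climb into the gene body came earlier in the Frizzled genes than in the ligands. Most Frizzled genes keep their coding sequence in 1 large exon, and a link of this to the climb was not tested. Pooled over the genes of the role, the siCon level was 7.10% in the first 500 bp, 24.2% from 1000 to 1499 bp and 59.6% from 1500 to 1999 bp. In the ligands the level was still 15.3% from 1500 to 1999 bp and reached 43.1% from 4500 to 4999 bp. In these steps siH19 differed from siCon by between -1.32 and 0.781 points. Some other steps differed more, such as 4.88 points in Frizzled genes from 2000 to 2499 bp and -3.59 in ligands from 5500 to 5999 bp. The 5 Sfrp genes climbed sooner still, from 16.9% in the first 500 bp to 48.9% from 500 to 999 bp in siCon. Frizzled genes had 17.2% in that second step. The Dkk profile rested on 1 to 4 genes per step and had no such form.

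The second question was whether these levels differed between siH19 and siCon. Differences are given as siH19 minus siCon in percentage points, combined over cytosines by the Mantel-Haenszel method with a standard error (SE) from read counts, tested by the Cochran-Mantel-Haenszel test and adjusted by Benjamini-Hochberg over all promoters or all bodies. No promoter of the group was called at an adjusted p under 0.05 with at least 10 points, where 0.626% of all promoters were. An adjusted p under 0.05 at any size was found for 3 of 35, with a background of 7.39%, and an unadjusted p under 0.05 for 7, with a background of 21.3%. The difference was under 3 points in 31 of 35 promoters, against 83.4% of all promoters, and 19 were higher and 16 lower in siH19. The group's promoters had a median of 72 compared cytosines, against 39 for all promoters, so these shares rest on unlike counting error. Pooled over all promoter cytosines of the group, the level was 13.0% in both libraries, with a difference of 0.0119 points (95% interval -0.222 to 0.246), beside 0.199 points over all promoters. The shares past each threshold thus lay near the background.

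**Figure D3:**
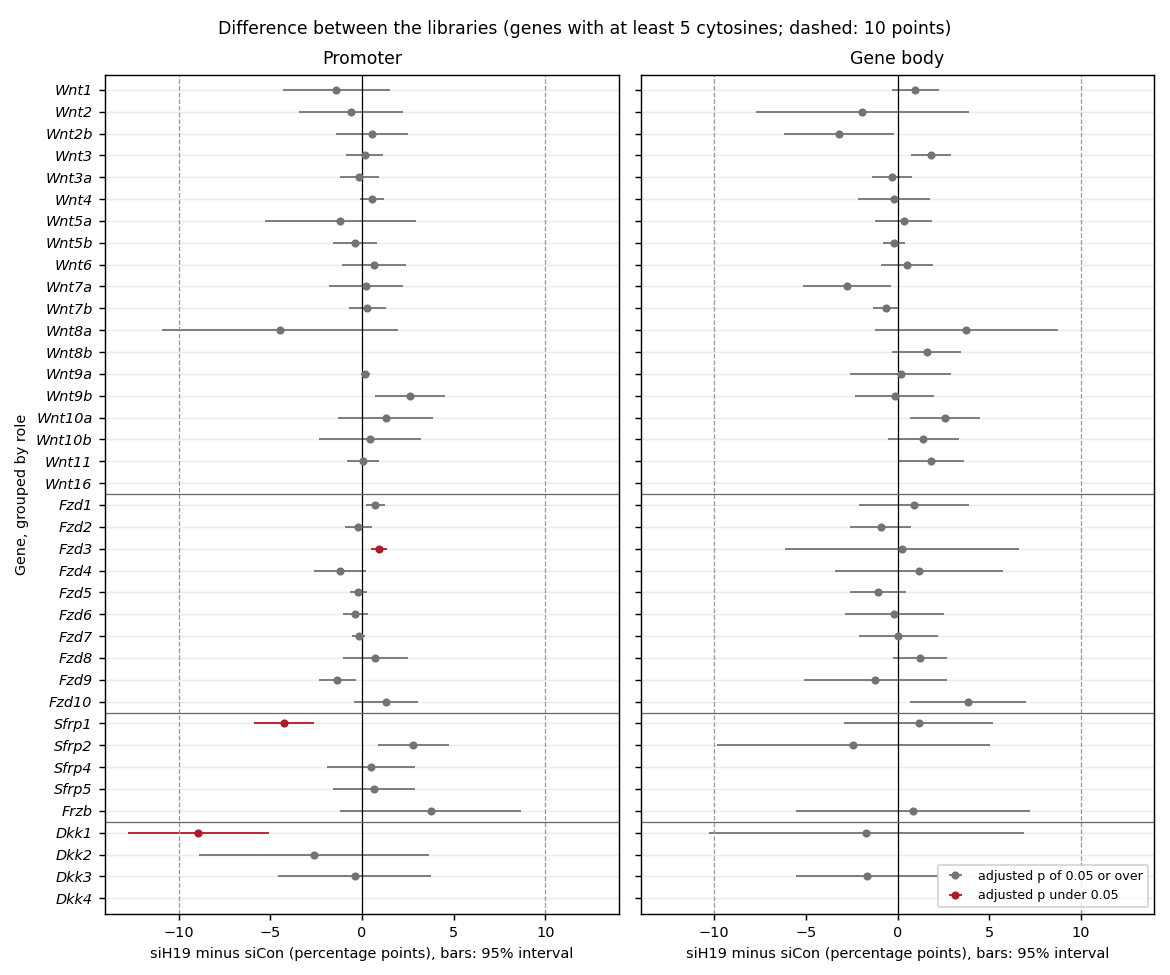
Difference between siH19 and siCon (percentage points) for promoters (left) and bodies (right) with at least 5 cytosines, with 95% counting intervals, red where the adjusted p was under 0.05. Only Fzd3, Sfrp1 and Dkk1 promoters are red, and no interval is centred beyond the dashed lines at 10 points.

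The 3 promoters with an adjusted p under 0.05 were Dkk1, Sfrp1 and Fzd3. Dkk1 was 49.3% (46.1 to 52.5) in siCon and 40.3% (37.5 to 43.2) in siH19 over 23 cytosines with 971 and 1161 reads. Its difference was -8.93 points (SE 1.96), with an adjusted p of 0.000737 by the Cochran-Mantel-Haenszel test, and it was lower on the plus strand (-12.1) and on the minus strand (-5.97). The Dkk1 difference was -6.18 points with every cytosine weighted equally (adjusted p 0.134), -4.52 with reads summed over the window (0.150) and -3.77 with windows of 500 bp either side (0.656), none of which passed. Sfrp1 was 22.7% (21.3 to 24.3) in siCon and 18.5% (17.4 to 19.6) in siH19 over 100 cytosines. Its difference was -4.25 points (SE 0.821), with an adjusted p of 3.65e-05, and again both strands were lower, by -3.11 and -6.10. With the deepest 1% of cytosines left out, Sfrp1 was lower by -2.45 points and no longer passed (adjusted p 0.0884). Fzd3 was 1.14% (0.884 to 1.47) in siCon and 2.06% (1.73 to 2.45) in siH19 over 136 cytosines. Its difference was 0.922 points (SE 0.231) with an adjusted p of 0.0044, in the same direction on each strand and in all 6 of its testable promoter fragments. The counting intervals of siCon and siH19 did not overlap in any of the 3.

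A read that spans several CpGs enters such a test once per cytosine. With only the deepest cytosine of each restriction fragment and strand, a choice made after the values were seen, no promoter of the group had an adjusted p under 0.05: the difference was -15.6 points for Dkk1 (adjusted p 0.0613), -3.97 for Sfrp1 (0.492) and 0.983 for Fzd3 (0.741). Depth also doubled inside short fragments. In a 56-bp Sfrp1 fragment the plus-strand depth went from 13 at the ends to 26 in the middle in siCon and from 35 to 70 in siH19, and all 16 methylated read counts in the middle were even. The part of overlapping read ends in this was not tested. With all counts halved, Sfrp1 had an adjusted p of 0.0513 and Dkk1 0.152. As a further yardstick, the plus and minus cytosines of the same CpGs were compared within each library. The difference between libraries exceeded both strand differences at 7 of 35 promoters, among them Dkk1 (strand differences of -1.49 in siCon and 5.27 in siH19), Sfrp1 (1.42 and 0.393) and Fzd3 (0.169 and 0.193). At the median promoter the difference between libraries was 0.646 points, less than the strand difference of 1.49 in siCon and 1.29 in siH19. The same share over all promoters was not computed. A strand comparison used the reads of 1 library and the other comparison those of both, so they rest on unlike counting error. Dkk1, Sfrp1 and Fzd3 were picked by their adjusted p, so their place among the 7 is not separate evidence.

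Of the other promoters, Fzd9 was lower by -1.35 points (SE 0.509), with an adjusted p of 0.0933. Sfrp2 was higher by 2.80 points (SE 0.987), Wnt9b by 2.61 (SE 0.976) and Fzd10 by 1.30 (SE 0.887), with adjusted p-values of 0.0662, 0.0847 and 0.428. None of these 4 passed the test. Fzd1, a receptor that signals through β-catenin, differed by 0.720 points with an adjusted p of 0.0849. Frzb, another Wnt-binding inhibitor, had 33.8% in siCon and 37.5% in siH19, but its strands went in opposite directions (-2.03 and 9.42). The Dkk promoters were each lower in siH19 where testable, yet only Dkk1 passed, with Dkk2 at -2.61 and Dkk3 at -0.406 points. The strands of Dkk2 (-7.03 plus, 3.07 minus) and of Dkk3 (0.371 plus, -0.979 minus) also went in opposite directions.

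No gene body of the group was called, where 0.316% of all bodies were. None had an adjusted p under 0.05 by the Cochran-Mantel-Haenszel test (background 1.4%), and 4 of 33 had an unadjusted p under 0.05 (background 13.1%). The difference was under 3 points in 30 of 33 bodies, against 74.6% of all. The group's bodies had a median of 55 compared cytosines, against 23 for all bodies, so these shares rest on unlike counting error. The 4 were Wnt3 (13.2% and 15.0%, adjusted p 0.0748), Wnt7a (47.4% and 44.7%, 0.307), Wnt10a (24.3% and 26.9%, 0.185) and Fzd10 (41.3% and 45.1%, 0.272). Wnt10a is a ligand of tooth and skin appendages. The largest falls with at least 10 cytosines and 1 direction on both strands were Wnt2b (-3.20 points), Wnt7a (-2.76) and Dkk3 (-1.65), and the largest rises in level were Fzd10 (3.84), Wnt8a (3.75) and Wnt10a (2.58), none of which passed the test. Pooled body cytosines stood at 33.1% in siCon and 33.4% in siH19, which differed by 0.345 points (95% interval 0.0346 to 0.655), beside 0.285 over all bodies. With 1 cytosine per fragment and strand it was -0.0358 points, so its direction was not stable. The Dkk2 body, outside the test with 4 cytosines, had weighted levels of 76.7% in siCon (30 reads) and 48.0% in siH19 (46 reads).

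Windows average over many fragments, so the restriction fragments themselves were compared next, a step added after the window values were known. The fragments named here were chosen after their values were seen. Of 372 fragments of the 38 genes with at least 5 cytosines, 9 were called (adjusted over all 114916 fragments of the genome, at least 10 points), or 2.42%, where the background was 1.41%. An adjusted p under 0.05 at any size was found in 22 (background 3.36%), 13 higher and 9 lower in siH19, spread over 17 genes. Of the 9 called, 7 were higher in siH19 and 2 lower, where 0.892% and 0.518% of all fragments were, and 7 had the same direction on both strands. With counts halved, 0 of the 9 were called and the background was 0.115%, so each rests on the reads being counted as deposited. With at least 10 reads per cytosine, 7 of 318 fragments were called (2.20%, background 1.36%). With every cytosine weighted equally, 6 of 372 were (1.61%), below the background of 2.04%.

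**Figure D4:**
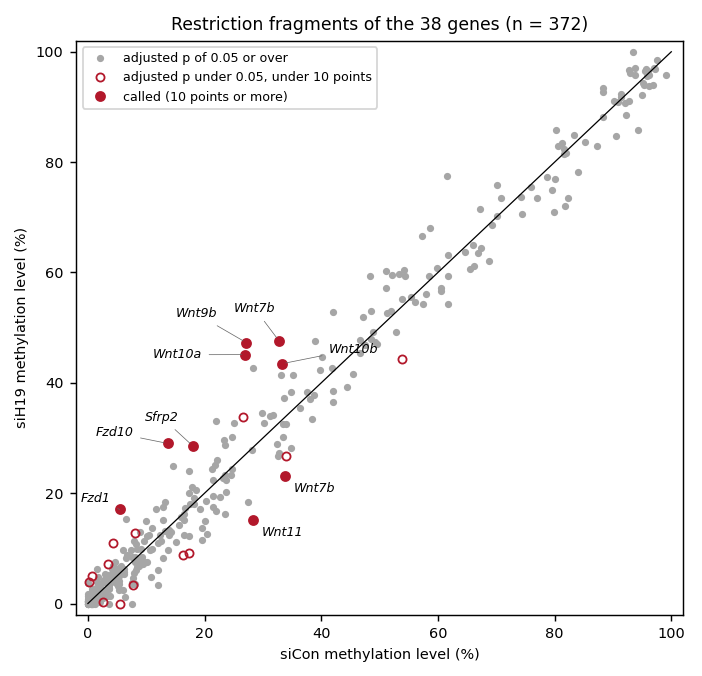
Level in siH19 (%) against level in siCon (%) for the 372 restriction fragments of the 38 genes with at least 5 cytosines, where the line marks equal levels. Most points lie along the line, and the 9 filled red points, named by gene, are the called fragments, 7 above it and 2 below.

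The Sfrp2 fragment printed above, centred at -355 bp from the start, was 17.95% (15.2 to 21.0) in siCon and 28.6% (26.2 to 31.1) in siH19, which differed by 10.6 points (SE 1.88) with an adjusted p of 5.52e-05 by the Cochran-Mantel-Haenszel test. With strands summed, all 8 CpGs of the printed sequence were higher in siH19, and 14 of the 16 cytosines were. The last CpG, at base 51 of the printed sequence, went from 23.0% of 61 reads to 48.4% of 122 reads. Depth doubled in this fragment as well: the CpGs at bases 26, 33 and 35 had 121 reads in siCon and 244 in siH19. The others had 60 to 61 in siCon and 122 in siH19. At bases 26, 33 and 35 each methylated read count, per strand and library, was even. Whether overlapping read ends play a part was not tested. With counts halved, the fragment had an adjusted p of 0.0885 by the same test. The other testable fragment before the start, at -204 bp, was 33.5% and 32.5% (adjusted p 0.957), and one at -439 bp, with too few cytosines for the test, was 46.1% and 56.2%. The 5 testable fragments between 113 and 653 bp after the Sfrp2 start differed less, for example 13.3% and 13.2% at 113 bp and 49.0% and 49.2% at 432 bp.

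At Sfrp1, 2 neighbouring fragments before the start passed the test, while the printed stretch that joins them was not itself tested. This stretch, 121 bp just before the start, was 16.6% (14.7 to 18.7) in siCon and 8.87% (7.85 to 10.0) in siH19, which differed by -7.70 points (SE 1.14). The 2 fragments within it had 17.3% and 9.10% (adjusted p 0.0113) and 16.4% and 8.80% (adjusted p 6.34e-07). Of its 17 CpGs, 15 were lower in siH19, and of its 34 cytosines 26 were lower and 7 higher. The fragment centred 31 bp after the start was at 3.16% and 4.76%, and the one at 559 bp was at 41.8% and 42.7%. The one at 679 bp had 79.9% in siCon and 70.9% in siH19, with an adjusted p of 0.287. Neither Sfrp1 fragment reached 10 points, and neither was called. Depth differed here, with 1305 reads in siCon and 2691 in siH19. Without the deepest 1% of cytosines the promoter did not pass, as given above.

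At Dkk1, 12 of the 23 cytosines lay in the exon 2 fragment printed above, centred 831 bp after the start. It was 53.9% (50.4 to 57.4) in siCon and 44.3% (41.3 to 47.3) in siH19, which differed by -9.61 points (SE 2.16) with an adjusted p of 0.00182. All 6 CpGs were lower with strands summed, and 11 of 12 cytosines. The CpG at base 33 went from 75.4% of 199 reads to 62.5% of 269 reads, and the one at base 39 from 70.7% to 60.2%. Depth doubled here too: the CpGs at bases 33 and 39 had 198 to 199 reads in siCon and 269 in siH19. The outer CpGs had 95 to 100 in siCon and 132 to 135 in siH19. At bases 33 and 39 each methylated read count, per strand and library, was even. The part of overlapping read ends in this was not tested. The outer CpGs were lower in level in both libraries, for example 24.0% and 16.3% at base 2. The fragment nearer the start, at 387 bp, was 10.2% and 7.47%, also lower in siH19, and did not pass the test (adjusted p 0.817). Whether the 2 fragments differed from each other in their change was not tested, and no Dkk1 cytosine before the start was compared.

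**Figure D5:**
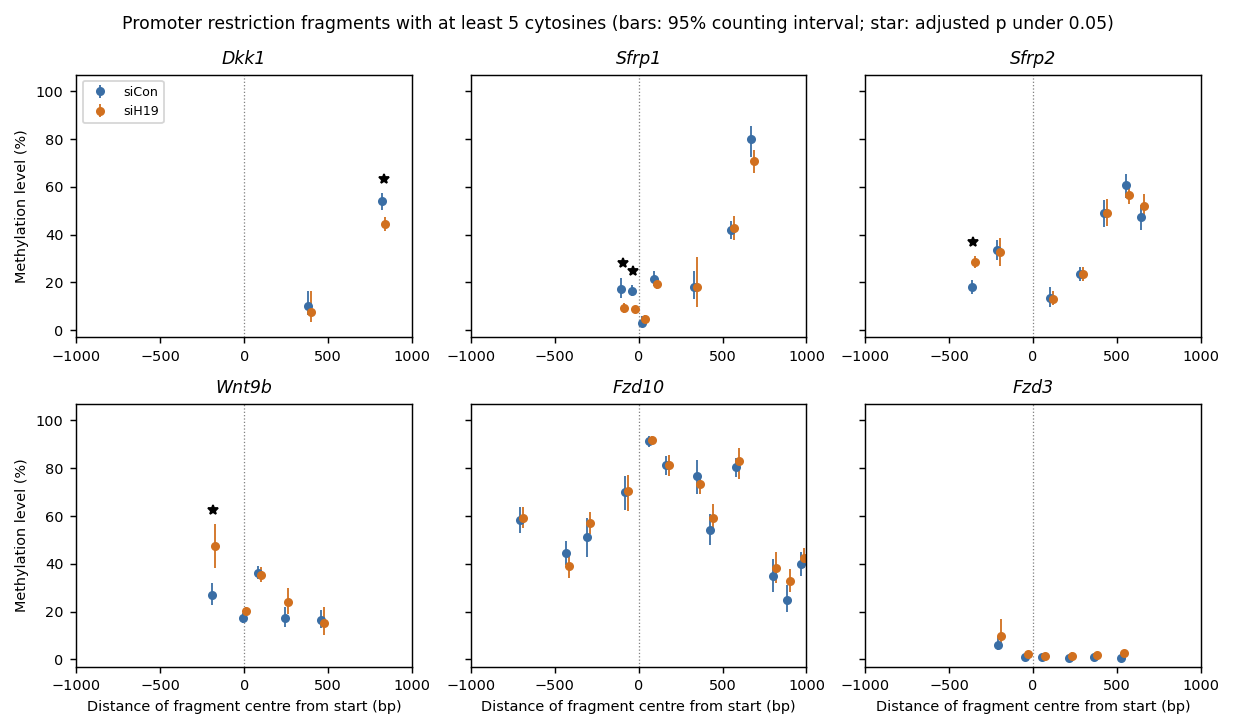
Methylation level (%) of promoter restriction fragments with at least 5 cytosines in siCon and siH19 against the distance of the fragment's centre from the start (bp), with 95% counting intervals and a star where the adjusted p was under 0.05. Stars mark 1 fragment each at Dkk1, Sfrp2 and Wnt9b and 2 at Sfrp1, while the neighbouring fragments and all those of Fzd10 and Fzd3 shown carry none.

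The Wnt9b fragment printed above, centred at -184 bp from the start, went from 27.1% (22.8 to 31.9) in siCon to 47.3% (38.1 to 56.6) in siH19, which differed by 20.2 points (SE 4.90) with an adjusted p of 0.00637. It had 365 reads in siCon and only 108 in siH19, or 18 at each CpG, so few reads carried it. The CpG at base 183 went from 28.3% to 72.2% and the one at base 180 from 27.9% to 66.7%, while the one at base 8 went from 31.1% to 27.8%. The other Wnt9b promoter fragments did not pass the test, such as 36.3% and 35.4% at 92 bp.

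The other called fragments lay further into the genes. In Wnt10a the fragment at 1985 bp was 27.0% in siCon and 45.1% in siH19, in Fzd10 the one at 1590 bp was 13.7% and 29.0%, and in Wnt10b the one at 1657 bp was 33.3% and 43.5%. Wnt7b, a ligand of lung and kidney development, had a fragment at 6230 bp with 32.7% and 47.6% and another at 1936 bp in the opposite direction, with 33.8% and 23.1%. In Wnt11, a ligand that signals mostly without β-catenin, the fragment at 3642 bp was 28.3% and 15.1%. Fzd1 had a fragment at 734 bp with 5.45% and 17.0%, but its difference was 2.56 points where cytosines needed 10 reads. The Wnt9b and Wnt10b fragments and the Wnt7b fragment at 1936 bp were not called with cytosines weighted equally, and the Fzd1 and Fzd10 fragments (adjusted p 0.0753 for Fzd10) were not with 10 reads per cytosine. For Fzd1, the difference was 34.3 points on the plus strand and 0.475 on the minus strand.

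At single cytosines, 47 of 5383 differed strongly, with a two-sided Fisher's exact p under 0.05 and at least 33 points, or 0.873% against a background of 0.986%. Of the 47, 29 were higher in siH19 and 18 lower, where the background was 0.519% and 0.467% of cytosines, and they lay in 24 genes. None had an adjusted p under 0.05 (background 0.00648%), the lowest being 0.211, and 191 had an unadjusted Fisher's exact p under 0.05, or 3.55% against 2.53% of all cytosines. In promoters 17 were higher (0.624%, background 0.249%) and 3 lower (0.110%, background 0.256%), and in gene bodies 12 were higher (0.452%, background 0.649%) and 15 lower (0.565%, background 0.562%). Where the cytosine on the opposite strand of the CpG was covered, it moved the same way for 22 of 43. Fzd10 and Wnt9b had the most, with 6 each, all 6 higher in Fzd10. Cytosines of 1 fragment share reads, so these counts are not counts of separate changes. All 4 higher Wnt9b cytosines lay in its promoter fragment printed above, with 10 or fewer siH19 reads each. At the Fzd10 cytosines the opposite strand was higher in siH19 at some and lower at others.

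By rule, 6 CpGs were singled out, the 3 with the lowest p in each direction among those with a strongly changed cytosine (at least 33 points). These CpGs also had 10 reads or more on each strand of each library and moved 1 way on both strands. The Fzd10 cytosine at -306 bp from the start went from 32.3% of 31 reads to 66.7% of 72 reads. In Sfrp2 the cytosine at -339 bp from the start, the last CpG of the printed fragment, went from 14.8% of 27 reads to 51.0% of 49 reads. Fzd8, a receptor encoded by a single exon, had a cytosine at 1699 bp that went from 11.1% to 54.5% and another at 2595 bp that went from 76.2% to 40.0%. The Wnt7b cytosine at 1938 bp went from 52.0% of 25 reads to 17.6% of 74 reads, and the Frzb cytosine at 1163 bp from 95.7% of 23 reads to 61.5% of 13 reads. Their unadjusted Fisher's exact p-values ran from 0.000465 to 0.041, and none passed adjustment.

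Of 50 further genes of Wnt signalling (co-receptors, secreted enhancers, the β-catenin destruction complex and transcription partners), 45 had a testable promoter. None of these was called (0.626% of all promoters were), and 39 were under 20% in both libraries (68% of all promoters were). An adjusted p under 0.05 by the Cochran-Mantel-Haenszel test was found for 4 of 45 (8.89%), near the background of 7.39%: Rspo2, Dvl2 and Csnk1a1 were higher in siH19 and Tle2 lower. Of 48 testable bodies 1 was called, or 2.08% where the background was 0.316%, that of the co-repressor Tle4, which went from 34.4% to 50.2% with an adjusted p of 0.00952. Among 10 muscle genes 7 promoters were testable, none was called, and 4 were under 20% in both libraries, where 68% of all promoters were. In siCon and siH19, Des had 3.79% and 5.07%, Ckm 7.93% and 12.3%, Acta1 12.3% and 12.4%, and Chrna1, on 6 cytosines, 0% in both. The others were Myod1 at 35.1% and 38.9%, Myog at 74.0% and 77.5% over 6 cytosines, and Myf5 at 62.8% and 53.7% over 9. None of these 7 had an adjusted p under 0.05. Of 7 testable muscle gene bodies none was called, and 1 had an adjusted p under 0.05, or 14.3% where the background was 1.4%. It was that of Acta1, the actin of skeletal muscle fibres, with 29.1% and 38.4% (adjusted p 1.80e-05). Among 12 marker genes of other cell types 4 promoters and 10 bodies were testable, and none was called or had an adjusted p under 0.05.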

How the data were processed

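CpG methylation was measured in 2 libraries, siCon and siH19, 1 per group by the labels. The authors aligned reads with Bismark in non-directional mode, trimmed filled-in bases at methylation calling and deposited, per CpG cytosine and strand, a text field in another unit than a plain number (methylated reads, total reads, percent) and a deposited score, the methylated fraction scaled up to 1000, used only to check parsing. Removal of duplicate reads was not given in the sources used here. The submitters' processing notes name mm10 and bcl2fastq 1.8.4, and all cytosines fell on CpGs of GRCm38.p6. Genes came from GENCODE M21. Cytosines needed 5 reads in each library and had to lie outside CCGG and TCGA. Regions needed 5 cytosines. Greenland-Robins standard errors, Cochran-Mantel-Haenszel tests, two-sided Fisher's exact tests and Benjamini-Hochberg adjustment were computed in Python 3.11.15 with numpy 2.4.6, pandas 2.3.3 and scipy 1.17.1 after tests on simulated data. Intervals cover counting error alone: the reads carry no molecular identifiers and need not stem from separate molecules.

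The 38 genes, the 50 pathway genes and the 22 markers were chosen with earlier results of these data known. Named were genes with promoters of at least 20% in both libraries, every gene that passed a test, the 3 largest differences in each direction with at least 10 cytosines and 1 direction on both strands, and 3 CpGs in each direction. Alternatives were other read minimums, cut-site cytosines, summed strands, depth and repeat filters, other windows, weights and thresholds. Restriction fragments, halved counts and 1 cytosine per fragment and strand were added after the data were seen.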

Additional observations from a re-analysis of the deposited data

How the results depend on the processing

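No paired analysis was possible because each group had 1 library. No promoter of the group was called under any other setting except a limit of 5 points, which called 1 (Dkk1; 1.78% of all promoters), and no body except with reads summed over the region, which called 1 (Sfrp2; 8.67% of all bodies). Promoters with an adjusted p under 0.05 numbered 7 with windows of 500 bp (21.2% of those tested, where 7.37% of all promoters passed), 5 with summed reads (14.3%, against 16.8%), 1 with equally weighted cytosines (2.86%, against 4.67%), 0 with counts halved (against 0.436%) and 0 with 1 cytosine per restriction fragment and strand (against 0.0505%), where 3 did in the report (8.57%, against 7.39%). Dkk1 lost its adjusted p in 5 of 11 settings and Sfrp1 and Fzd3 in 3 each, without a change of direction. With summed reads the pooled difference was -0.247 points for promoters and -1.36 for bodies, Fzd10's promoter -0.365 and Wnt7a's body 2.85. With 1 cytosine per fragment and strand, the pooled bodies gave -0.0358, Fzd10's promoter -1.56 and Wnt10a's body -0.0848. Summed reads weight cytosines by their depth in each library, which differed. The middle class held 18 promoters with cut-site cytosines kept, 6 with windows of 500 bp (1 then over 80%) and 17 with limits of 10 and 90%. Strongly changed cytosines numbered 30 with 10 reads, 87 with cut-site cytosines, 9 with strands summed, 108 at 20 points and 0 at an adjusted p under 0.05. Called fragments numbered 0 with counts halved, 7 with 10 reads and 6 with equal weights, against 9. The cause of these shifts was not tested. Few methylated reads stand behind low promoters such as Fzd3, where depth limits the comparison.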
